A study of Arabidopsis thaliana with 6 samples.

Results

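Cytosine methylation in plants is written, copied, removed and guarded by a small set of enzymes, and the expression of 10 genes that encode them was followed in *A. thaliana* seedlings. The genes were chosen by identifier, by their known roles and not by a threshold on their values, although earlier results of these data were known: *MET1*, *DDM1*, *CMT3*, *CMT2*, *KYP*, *DRM2*, *NRPD1*, *NRPE1*, *ROS1* and *IBM1*. They are 10 of the 64621 annotated features listed, and all 10 passed the filter on low values that 20249 features passed. Polyadenylated RNA was sequenced from 14-d-old Col-0 seedlings of 3 genotypes with 2 libraries each, namely WT, *nerd-1* and *nerd-1*+T. *nerd-1* carries a T-DNA insertion in *NERD*, and *nerd-1*+T is the same mutant with a transgene for flag-tagged NERD. The promoter of that transgene and the number of independent lines behind it are not given in the sources used here. *NERD*, a gene previously tied to DNA methylation-dependent silencing, was listed at 14.1 and 13.9 FPKM in WT, 7.59 and 7.45 FPKM in *nerd-1* and 63.7 and 63.5 FPKM in *nerd-1*+T.

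Methylation in plants occurs at CG sites and at the non-CG contexts CHG and CHH, where H is any base but G. MET1 copies CG methylation after DNA replication, CMT3 and CMT2 methylate non-CG sites in chromatin that carries the repressive histone H3 mark written by KYP, and the remodeller DDM1 gives these enzymes access to packed DNA. DRM2 methylates new sites guided by small RNAs that depend on RNA polymerase IV, whose largest subunit is NRPD1, and on scaffold transcripts of RNA polymerase V, whose largest subunit is NRPE1. ROS1 is a DNA glycosylase that cuts out methylated cytosine, and IBM1 is a histone demethylase that keeps the KYP mark, and with it CHG methylation, out of transcribed genes.

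FPKM is the number of fragments per kilobase of feature, relative to the number of mapped fragments in the library, so levels of different genes can be set side by side. Changes are log2 ratios of FPKM + 1 between genotypes, and a gene is said to have risen or fallen where limma's adjusted *p*-value was under 0.05. The labels do not say whether the 2 libraries of a genotype came from separate plantings, so *p*-values measure the spread between these libraries, which may be technical. FPKM hold no read counts, hence the number of reads behind a value is unknown. The median SD of log2(FPKM + 1) between the 2 libraries was 0.040 for WT and 0.036 for *nerd-1*, compared with 0.092 for *nerd-1*+T, so that the complemented line was measured least precisely. The median of all features tested was shifted by -0.11 in *nerd-1* and by -0.17 in *nerd-1*+T relative to WT. Where one of the 10 genes fell relative to WT, its change is therefore also given relative to that shift. A single metallothionein gene, *MT1A*, took 12.9% and 13.5% of the FPKM total in the *nerd-1* libraries, compared with 1.10% to 3.57% in the other 4, and its part in the shift was not tested. In these whole seedlings the 4 root markers summed to 33.6 and 34.3 FPKM in WT, 30.3 and 32.0 FPKM in *nerd-1* and 26.9 and 27.7 FPKM in *nerd-1*+T. The 4 flower markers, all below the filter, summed to 0.569 and 0.641 FPKM in WT, 1.02 and 0.997 FPKM in *nerd-1* and 0.956 and 0.889 FPKM in *nerd-1*+T. The listed values of the 4 leaf markers moved apart. *CAB1* went from 11763 and 11623 FPKM in WT to 0 in both *nerd-1* libraries. In *nerd-1*+T it was listed at 13469 FPKM in replicate 1 and at 0 in replicate 2, and a listed 0 can be a failed estimate. *CAB3* was listed higher in *nerd-1* (1.56, adjusted *p* = 0.000663). How reads were shared between *CAB1* and *CAB3* was not tested, so that rise is uncertain too. *RCA* was higher in *nerd-1* (0.43, adjusted *p* = 0.0185), and *RBCS1A* did not pass (-0.18, adjusted *p* = 0.275). None of the 10 genes was listed at 0 in any library.

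Among the 10 genes, the demethylase *ROS1* was the most abundant in all 3 genotypes, and the polymerase IV subunit *NRPD1* the least abundant. In WT, the order by mean level was *ROS1*, *IBM1*, *MET1*, *CMT2*, *CMT3*, *DRM2*, *DDM1*, *KYP*, *NRPE1* and *NRPD1*. Neighbours in this order did not overlap between the WT libraries, except *DDM1* and *KYP*. The step from *MET1* to *CMT2* was only 1.02-fold, and that from *KYP* to *NRPE1* was 1.94-fold. *ROS1* lay at the 59.5th percentile of the tested features by mean level, and *NRPD1* at the 6.24th percentile. In *nerd-1* the order changed, in that *CMT2* came directly after *ROS1*, *MET1* after *DRM2* and *DDM1* after *KYP*.

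**Figure D1:**
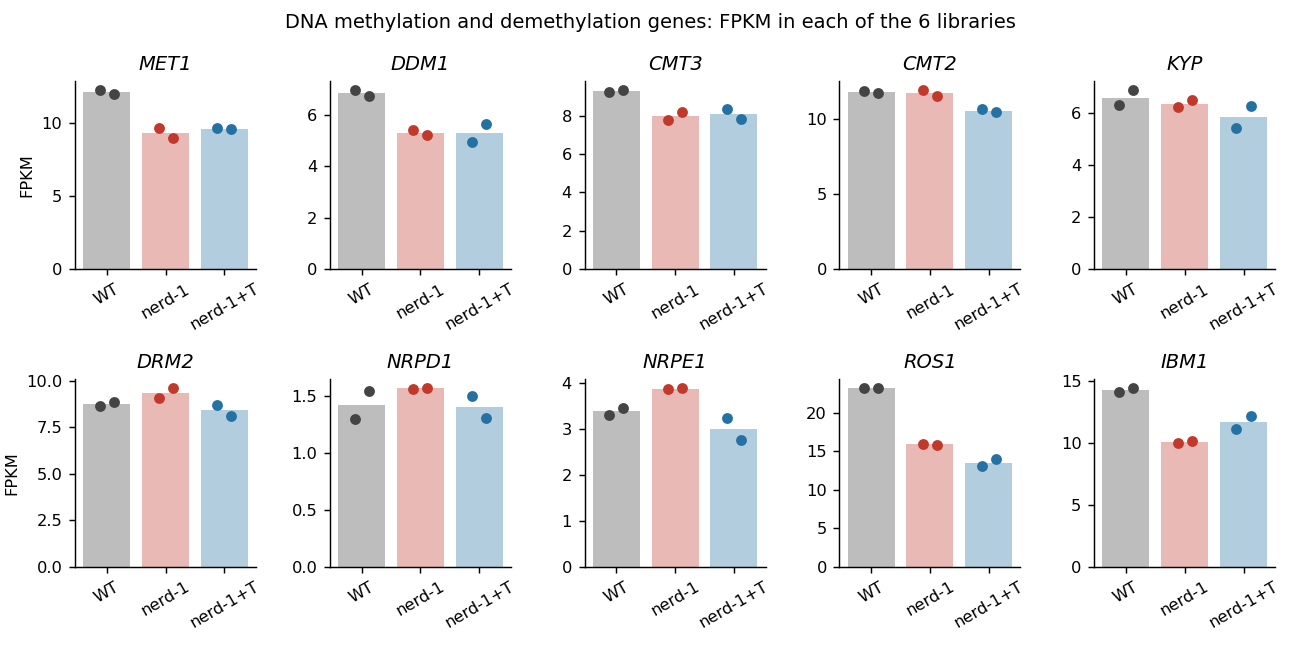
FPKM of the 10 genes in each of the 6 libraries. Points are libraries, bars are the mean of the 2 libraries of a genotype, and each panel has its own vertical axis that starts at 0; *ROS1* has a mean of 23.3 FPKM for WT, 15.9 for *nerd-1* and 13.5 for *nerd-1*+T, whereas *CMT2* is at 11.8 and 11.7 FPKM in WT and *nerd-1*.

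In *nerd-1* compared with WT, *ROS1*, *IBM1*, *MET1*, *DDM1* and *CMT3* fell, to between 68.3% and 85.8% of the WT mean, and no gene of the 10 rose. The genes that fell include both the demethylase and the copying enzymes of CG and CHG methylation. The genes of the small RNA-guided pathway (*DRM2*, *NRPD1*, *NRPE1*), *CMT2* and *KYP* did not pass the test. Of all tested features 36.3% fell and 19.4% rose, so that 5 of 10 genes lower and 0 of 10 higher is to be read against those shares. The median change of the 10 genes was -0.12, beside -0.11 for all features tested.

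*ROS1* (AT2G36490, TAIR10.1 chr2:15307907-15314807, minus strand) was listed at 23.3 FPKM in both WT libraries, at 15.98 and 15.84 FPKM in the *nerd-1* libraries and at 13.1 and 14.0 FPKM in the *nerd-1*+T libraries. The 3 genotypes did not overlap, with WT highest and the complemented line lowest. The change in *nerd-1* was -0.52 (SE 0.0513, adjusted *p* = 0.00144), or -0.41 relative to the median of all features. The promoter of *ROS1* is known to sense methylation, in that the gene is transcribed less where methylation is lost.

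*IBM1* (AT3G07610, chr3:2425884-2433113, plus strand) was at 14.1 and 14.5 FPKM in WT, 9.98 and 10.2 FPKM in *nerd-1* and 11.1 and 12.2 FPKM in *nerd-1*+T. Every mutant library was below both WT libraries, and *nerd-1* was below *nerd-1*+T. Its change in *nerd-1* was -0.46 (SE 0.0608, adjusted *p* = 0.00303), or -0.36 relative to the median of all features. *IBM1* has an unusual structure. Its intron 7 is 1974 bp long (chr3:2429125-2431098), and only 0.370% of 31346 annotated genes have an intron at least as long. A short annotated transcript ends 1079 bases into that intron, and the long transcripts cross it. Only the long form is known to encode the complete demethylase, and the value listed per gene does not separate the forms.

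**Figure D2:**
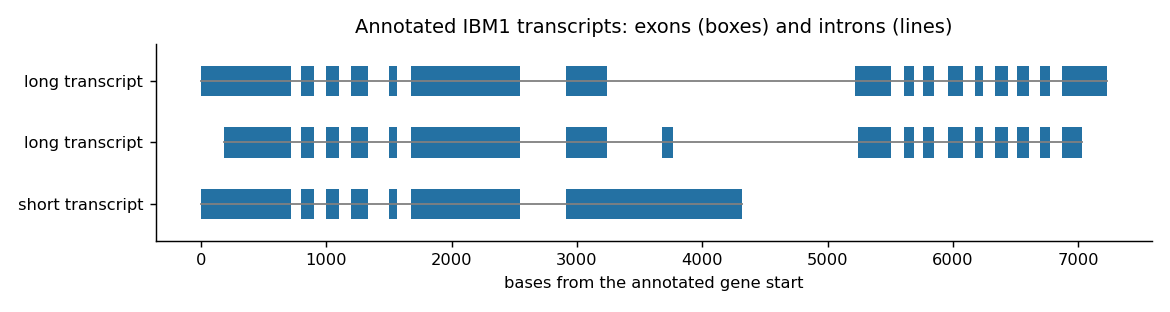
The 3 annotated *IBM1* transcripts, drawn to scale in bases from the annotated gene start, with exons as boxes and introns as lines. The short transcript ends 1079 bases into the 1974-bp intron that the longest transcript splices out, and 1 long transcript has an additional exon in it.

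*MET1* (AT5G49160, chr5:19932114-19938470, plus strand) was at 12.2 and 11.9 FPKM in WT, 9.61 and 8.95 FPKM in *nerd-1* and 9.60 and 9.58 FPKM in *nerd-1*+T. The 4 mutant libraries lay close together and below both WT libraries. The change of *MET1* in *nerd-1* was -0.35 (SE 0.0558, adjusted *p* = 0.00534), or -0.24 relative to the median of all features. *ROS1*, *IBM1* and *MET1* kept their call in *nerd-1* against WT under each of the 14 alternatives tried, with adjusted *p*-values of at most 0.0207, 0.0310 and 0.0463.

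*DDM1* (AT5G66750, chr5:26648897-26653191, plus strand) was at 6.99 and 6.74 FPKM in WT, 5.42 and 5.22 FPKM in *nerd-1* and 4.96 and 5.65 FPKM in *nerd-1*+T. It changed by -0.31 in *nerd-1* (SE 0.0742, adjusted *p* = 0.0170), or by -0.21 relative to the median of all features. *CMT3* (AT1G69770, chr1:26248118-26253687, minus strand) was at 9.27 and 9.36 FPKM in WT, 7.78 and 8.21 FPKM in *nerd-1* and 8.39 and 7.86 FPKM in *nerd-1*+T. For both genes all 4 mutant libraries lay below both WT libraries. The change of *CMT3* was the smallest of the 5, at -0.20 (SE 0.0591, adjusted *p* = 0.0356), or -0.09 relative to the median of all features. Its interval relative to zero ran from -0.35 to -0.05. Without any one of the 4 WT and *nerd-1* libraries, neither gene passed: the adjusted *p*-value of *DDM1* was then 0.0676 to 0.0982, and that of *CMT3* 0.0967 to 0.193. Both calls were also lost when the libraries were scaled so that the median of all features did not move (0.0592 and 0.253).

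*CMT2* (AT4G19020, chr4:10414428-10421265, plus strand), which methylates CHH sites in heterochromatin, stood at 11.9 and 11.8 FPKM in WT, 11.96 and 11.54 FPKM in *nerd-1* and 10.7 and 10.5 FPKM in *nerd-1*+T. WT and *nerd-1* overlapped, with a difference of -0.01 and a 95% confidence interval from -0.13 to 0.12. The levels of *CMT3* and *CMT2*, which belong to the same enzyme family, can be set against each other within a library. The ratio of *CMT3* to *CMT2* was 0.781 and 0.795 for WT, 0.650 and 0.712 for *nerd-1* and 0.785 and 0.750 for *nerd-1*+T. Both *nerd-1* libraries lay below the range of the other 4.

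*KYP* (AT5G13960, chr5:4501362-4506250, plus strand) was at 6.28 and 6.87 FPKM in WT, 6.21 and 6.47 FPKM in *nerd-1* and 5.40 and 6.24 FPKM in *nerd-1*+T. The WT and *nerd-1* libraries overlapped, and the difference was -0.04 with an interval from -0.26 to 0.17. *KYP* overlaps the convergent gene AT5G13970 by 60 bp, and whether strand was used in the quantification is not stated, so reads from that stretch cannot be assigned with certainty.

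The 3 genes of RNA-directed DNA methylation had *nerd-1* values above both WT libraries without passing the test. *DRM2* (AT5G14620, chr5:4715105-4718704, minus strand) was at 8.66 and 8.84 FPKM in WT, 9.05 and 9.62 FPKM in *nerd-1* and 8.67 and 8.12 FPKM in *nerd-1*+T. *NRPD1* (AT1G63020, chr1:23354685-23362589, minus strand) was at 1.30 and 1.55 FPKM in WT, 1.56 and 1.57 FPKM in *nerd-1* and 1.50 and 1.30 FPKM in *nerd-1*+T. *NRPE1* (AT2G40030, chr2:16714460-16723718, plus strand) was at 3.32 and 3.47 FPKM in WT, 3.87 and 3.91 FPKM in *nerd-1* and 3.25 and 2.76 FPKM in *nerd-1*+T. The differences between *nerd-1* and WT were 0.08 for *DRM2* (adjusted *p* = 0.282), 0.08 for *NRPD1* (adjusted *p* = 0.473) and 0.15 for *NRPE1* (adjusted *p* = 0.163). Their 95% intervals reached from -0.07 to 0.24, from -0.15 to 0.32 and from -0.05 to 0.36. Under median scaling *DRM2* passed the test as higher (0.19, adjusted *p* = 0.0455). With the libraries scaled to equal FPKM totals, the differences were -0.0519 for *DRM2*, -0.0052 for *NRPD1* and 0.0356 for *NRPE1*, and none passed.

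The choice of scale moved the overall balance of this comparison. Of all features tested 3924 rose and 7351 fell in *nerd-1* as deposited, 5475 rose and 5161 fell under median scaling, and 2641 rose and 10319 fell when the libraries were scaled to equal FPKM totals. The 10 genes gave 1 higher and 3 lower (*ROS1*, *IBM1*, *MET1*) under median scaling, and 0 higher and 5 lower with equal totals.

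**Figure D3:**
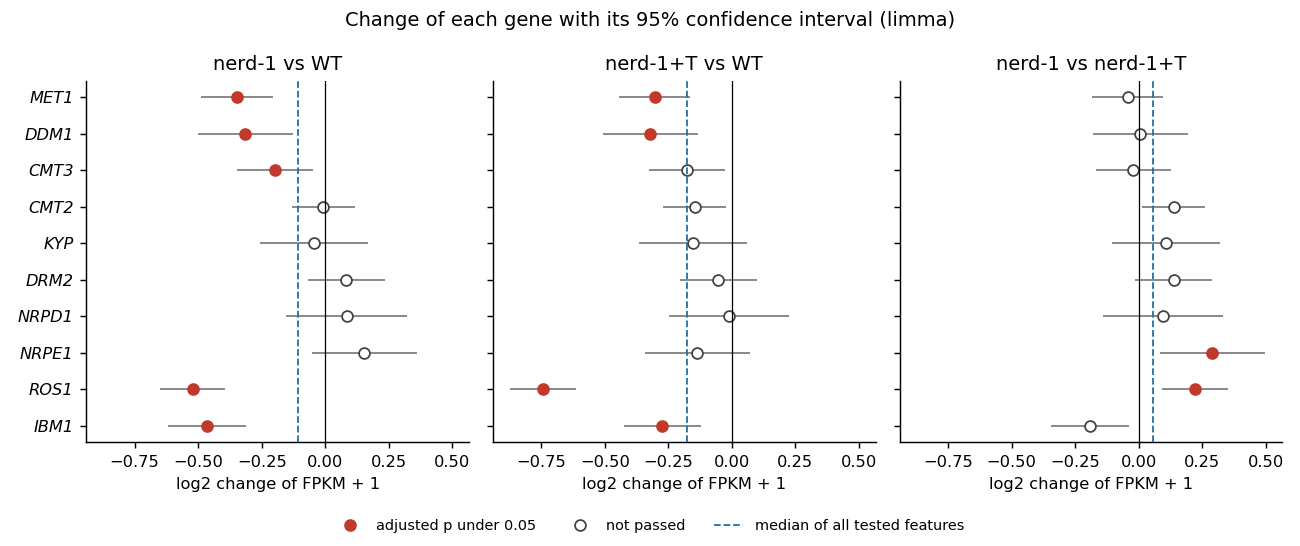
Change of log2(FPKM + 1) of the 10 genes in the 3 comparisons, with 95% confidence intervals not adjusted for the number of features. Filled points have an adjusted *p*-value under 0.05, the solid line is 0 and the dashed line is the median of all tested features; *ROS1* at -0.52 and -0.74 lies farthest from the dashed line in both comparisons with WT.

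In *nerd-1*+T compared with WT, *ROS1*, *DDM1*, *MET1* and *IBM1* were also lower. Thus 4 of 10 genes fell and 0 rose, where 39.8% of all tested features fell and 13.2% rose. *ROS1* changed by -0.74 (SE 0.0513, adjusted *p* = 0.000394), to 58.0% of the WT mean. The changes were -0.32 for *DDM1* (adjusted *p* = 0.0169), -0.30 for *MET1* (adjusted *p* = 0.00819) and -0.27 for *IBM1* (adjusted *p* = 0.0150). Relative to the median of all features, *ROS1* changed by -0.57, *DDM1* by -0.15, *MET1* by -0.13 and *IBM1* by -0.10. *CMT3* at -0.18 and *CMT2* at -0.15 missed the threshold narrowly (adjusted *p* = 0.0510 and 0.0523). The other 4 genes ranged from -0.15 to -0.01 and did not pass. The comparisons with WT share the WT libraries and are not independent of each other. Under median scaling, with 4368 features higher and 3680 lower in place of 2675 and 8069, only *ROS1* remained (-0.56). *DDM1*, *MET1* and *IBM1* were also lost without WT replicate 1 (adjusted *p* = 0.0906, 0.0583 and 0.0671), and *DDM1* and *IBM1* without WT replicate 2 (adjusted *p* = 0.0686 and 0.0888). *ROS1* kept its call under each of the 14 alternatives, with an adjusted *p*-value of at most 0.00798.

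The direct comparison of *nerd-1* with *nerd-1*+T asks which genes differ when the transgene is added. *NRPE1* and *ROS1* were higher in *nerd-1*, by 0.29 (SE 0.0823, adjusted *p* = 0.0422) and 0.22 (SE 0.0513, adjusted *p* = 0.0247), and none was lower. In this comparison 24% of all tested features were higher and 14% lower in *nerd-1*. Hence *ROS1*, which fell in *nerd-1*, was lower still in the line with the transgene. *IBM1* differed in the other sense by -0.19 and did not pass (adjusted *p* = 0.0573). *MET1*, *DDM1* and *CMT3* differed by -0.04, 0.01 and -0.02, with 95% intervals from -0.18 to 0.10, from -0.18 to 0.19 and from -0.17 to 0.13.

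These calls were the least stable. *NRPE1* and *ROS1* were lost under median scaling (adjusted *p* = 0.0812 and 0.0681), where *IBM1* passed as lower (-0.26, adjusted *p* = 0.0231), and with equal FPKM totals, where *IBM1* (-0.35) and *MET1* (-0.20) passed as lower. The all-feature split turned from 4850 higher and 2834 lower to 3384 and 3975 under median scaling and to 2374 and 5669 with equal totals. Both calls were also lost without either *nerd-1* library and without either WT library (adjusted *p* = 0.0653 to 0.177), and that of *NRPE1* without *nerd-1*+T replicate 2 (adjusted *p* = 0.0948).

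Ratios between genes of 1 library do not depend on how libraries are scaled. *ROS1* relative to *MET1*, the ratio of the demethylase to the CG methyltransferase, was 1.91 and 1.95 for WT, 1.66 and 1.77 for *nerd-1* and 1.36 and 1.46 for *nerd-1*+T. It was lower in steps, without overlap between genotypes. *ROS1* relative to *DME*, a glycosylase of the same family, was 1.23 and 1.22 for WT, 1.01 and 1.12 for *nerd-1* and 0.684 and 0.710 for *nerd-1*+T. *DME* itself was at 18.9 and 19.1 FPKM in WT, 15.9 and 14.2 FPKM in *nerd-1* and 19.1 and 19.7 FPKM in *nerd-1*+T, so the order of *ROS1* and *DME* was inverted in the complemented line. *MET1* relative to *DRM2* was 1.41 and 1.35 for WT, 1.06 and 0.930 for *nerd-1* and 1.11 and 1.18 for *nerd-1*+T, and both mutant genotypes lay below WT. *IBM1* relative to *CMT3*, whose activity in genes IBM1 counteracts, was 1.52 and 1.55 in WT and 1.28 and 1.24 in *nerd-1*. In *nerd-1*+T it was 1.33 and 1.55, with the higher library at the WT level. With 2 libraries per genotype an exact permutation test of such ratios cannot give a two-sided *p*-value below 0.333, and none was run.

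**Figure D4:**
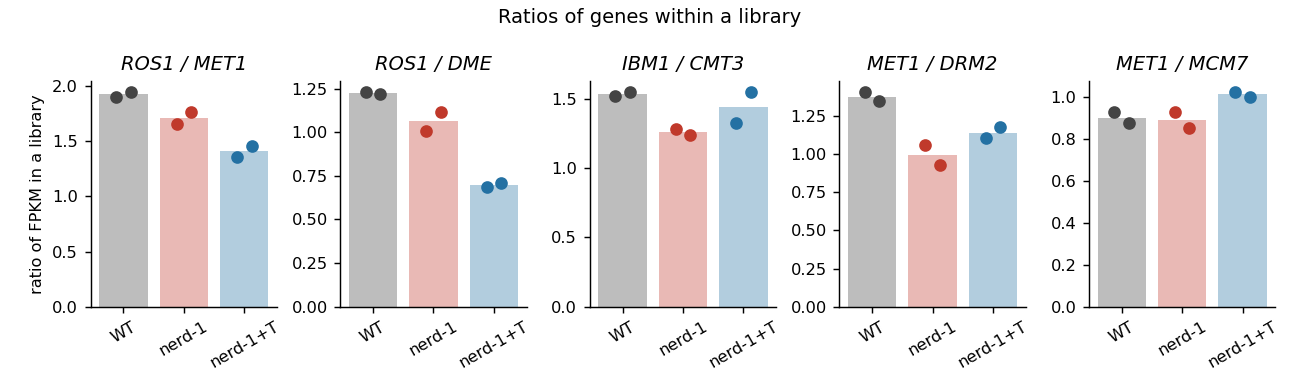
Ratios of FPKM within a library for 5 pairs of genes. Points are libraries and bars are the mean of 2; *ROS1*/*DME* is on average 1.23 for WT, 1.06 for *nerd-1* and 0.697 for *nerd-1*+T, whereas *MET1*/*MCM7* is 0.899 for WT, 0.890 for *nerd-1* and 1.01 for *nerd-1*+T.

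Maintenance methyltransferases act on newly replicated DNA, so genes of S phase and cell division were measured beside them. Of 17 such genes, 10 fell and 0 rose in *nerd-1* (median -0.33), and 15 fell and 0 rose in *nerd-1*+T (median -0.45). Over all tested features 36.3% fell and 19.4% rose in the first comparison, and 39.8% fell and 13.2% rose in the second, with medians of -0.11 and -0.17. *MCM2*, a subunit of the replicative helicase, went from 13.0 and 13.3 FPKM in WT to 7.84 and 8.18 FPKM in *nerd-1* (-0.65, adjusted *p* = 0.00140). The ribonucleotide reductase genes *RNR1* and *TSO2* changed by -0.58 and -0.49, and the mitotic kinase gene *CDKB2;1* by -0.50. The 7 genes that did not pass in *nerd-1* include both replication genes, such as the sliding clamp genes *PCNA1* (-0.08, adjusted *p* = 0.478) and *PCNA2* (-0.05, adjusted *p* = 0.466), and cell division genes, such as the mitotic cyclin gene *CYCB1;1* (0.08, adjusted *p* = 0.354). Summed over the 17 genes the level was 264 and 249.6 FPKM in WT, 201 and 197 FPKM in *nerd-1* and 178 and 187 FPKM in *nerd-1*+T. In RNA of whole seedlings, fewer dividing cells and less RNA per cell cannot be told apart, and the part of dividing cells in the lower *MET1*, *DDM1*, *CMT3* and *ROS1* was not tested. Under median scaling 7 of the 17 genes were lower in *nerd-1*, and for *nerd-1*+T the number was 8. With equal FPKM totals the numbers were 12 and 14. Of the leaf markers, *RCA* was higher in *nerd-1* and *RBCS1A* did not pass (-0.18, adjusted *p* = 0.275), whereas the values of *CAB1* and *CAB3* are uncertain. The part of tissue proportions was not tested.

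The pattern of *ROS1* over the 6 libraries was most like that of the helicase gene *MCM7* (Pearson's r = 0.996), among 65 genes of the lists searched. That of *DDM1* was most like *CDKB2;1* (r = 0.993), that of *MET1* most like the root patterning gene *SHR* (r = 0.988), and that of *IBM1* most like the cytokinesis gene *KNOLLE* (r = 0.972). The other members were most like genes of other lists. For *CMT3*, *CMT2* and *KYP* these were *CLSY1*, *AGO4* and *NRPD2* of RNA-directed DNA methylation (r = 0.974, 0.974 and 0.920). For *DRM2* and *NRPE1* it was the root marker *PIN2* (r = 0.884 and 0.947), and for *NRPD1* the leaf marker *RCA* (r = 0.727). The 6 libraries share 3 genotypes and one scale each, so these values only describe likeness. *MET1* relative to *MCM7* was 0.926 and 0.873 for WT, 0.926 and 0.853 for *nerd-1* and 1.02 and 0.998 for *nerd-1*+T. The WT and *nerd-1* ranges overlapped. *CMT3* relative to *MCM7*, on the other hand, was 0.702 and 0.685 for WT, 0.749 and 0.783 for *nerd-1* and 0.894 and 0.819 for *nerd-1*+T, without overlap between genotypes. *DDM1* relative to *MCM7* was 0.529 and 0.493 for WT, 0.522 and 0.498 for *nerd-1* and 0.529 and 0.589 for *nerd-1*+T.

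Since the pattern of *ROS1* was most like that of a replication gene, its promoter is shown beside those of replication genes that hold the same letters. The 300 bases before each annotated gene start were searched on both strands for 8 letter forms of the site known to be bound by E2F factors, which control replication genes: TTTCCCGC, TTTCCCGG, TTTCGCGC, TTTCGCGG, TTTGCCGC, TTTGCCGG, TTTGGCGC and TTTGGCGG. At least 1 form was found in 2 of the 10 genes, *ROS1* (30 bases before the start) and *CMT2* (238 bases before it), in 6 of the 17 S phase and cell division genes and in 3.196% of 27443 protein-coding genes. The form in *ROS1*, TTTCCCGC, lay within 60 bases of the start in 4 of those 17 genes and in 0.219% of protein-coding genes. This form and window were picked with the match in *ROS1* known, so the shares are no test. Genes of the list without the form are not shown. These 60 bases are given 5′ to 3′ on the strand of the gene (RefSeq, TAIR10.1), with the matched letters in capitals, for *ROS1* (chr2:15314808-15314867), *MCM2* (chr1:16970154-16970213), *MCM5* (chr2:3527501-3527560), *MCM6* (chr5:18010668-18010727, match on the other strand) and *ICU2* (chr5:26776893-26776952), which encodes a DNA polymerase subunit.
ROS1: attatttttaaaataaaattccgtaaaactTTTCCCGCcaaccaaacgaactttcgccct
MCM2: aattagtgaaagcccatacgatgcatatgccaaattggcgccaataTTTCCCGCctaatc
MCM5: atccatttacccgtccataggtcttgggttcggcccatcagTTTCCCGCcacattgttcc
MCM6: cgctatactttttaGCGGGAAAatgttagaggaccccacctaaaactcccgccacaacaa
ICU2: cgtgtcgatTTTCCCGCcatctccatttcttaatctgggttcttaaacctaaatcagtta

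The match is a description of letters, and whether these letters have a part in any change of level was not tested. *MCM7*, *MET1*, *DDM1* and *CMT3* had none of the 8 forms in their 300 bases and had lower values in both mutant genotypes. *MCM2*, *MCM5* (-0.25, adjusted *p* = 0.0223) and *MCM6* (-0.34, adjusted *p* = 0.00710) fell in *nerd-1* and *ICU2* did not pass (-0.14, adjusted *p* = 0.187). *CMT2*, with a more distant match, differed from WT by -0.01.

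Of the other genes that maintain methylation, more fell than rose in *nerd-1* with the values as deposited. Of 12 partners of maintenance and non-CG methylation, 9 passed the filter, of which 5 fell and 1 rose in *nerd-1* (median -0.19), beside 36.3% and 19.4% of all tested features. *HDA6*, a histone deacetylase needed for silencing together with MET1, rose from 9.56 and 8.84 FPKM in WT to 13.8 and 14.0 FPKM in *nerd-1* (0.55, SE 0.0670, adjusted *p* = 0.00259), with 11.4 and 10.4 FPKM in *nerd-1*+T. *DNMT2*, which methylates transfer RNA, changed by -0.44 (adjusted *p* = 0.0329). The silencing factor *MORC6* was at 0.16 (adjusted *p* = 0.0615), and *SUVH6*, a histone methyltransferase related to *KYP*, was at 0.08 (adjusted *p* = 0.312), and neither passed. The second de novo enzyme gene, *DRM1*, was listed at no more than 0.0254 FPKM in any library. Of these paralogs *DRM2* was thus the one that passed the filter. Under median scaling 3 partners were higher and 0 lower, so that the calls in this group depend on the scale, although *HDA6* kept its call (adjusted *p* = 0.00177). The median of the list was still negative then (-0.08). With equal totals 1 was higher and 5 were lower.

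Of 21 further genes of RNA-directed DNA methylation, 17 passed the filter, of which 5 fell and 0 rose in *nerd-1* (median -0.12). The shares over all tested features were 36.3% and 19.4%, with a median of -0.11. *IDN2*, which binds RNA in the polymerase V arm of the pathway, fell most, from 30.05 and 27.51 FPKM in WT to 14.2 and 13.5 FPKM in *nerd-1* (-1.01, SE 0.120, adjusted *p* = 0.00241). It stood at 19.8 and 25.4 FPKM in *nerd-1*+T, between the other genotypes, and was lower in *nerd-1* than in *nerd-1*+T (-0.66, adjusted *p* = 0.0127). *SHH1*, which recruits polymerase IV, changed by -0.40 (adjusted *p* = 0.0319) and *SUVH9*, which brings polymerase V to methylated DNA, by -0.29 (adjusted *p* = 0.0224). *KTF1*, a polymerase V-associated elongation factor, was at 0.38 and did not pass (adjusted *p* = 0.0847). Under median scaling only *IDN2* remained lower and *KTF1* passed as higher (adjusted *p* = 0.0489), whereas with equal totals 14 of the 17 were lower and 0 higher.

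All 13 genes listed for demethylation and for the control of *ROS1* and *IBM1* passed the filter, of which 5 fell and 2 rose in *nerd-1* (median -0.07), near the 36.3% and 19.4% of all tested features. The glycosylase gene *DML3* fell from 2.21 and 1.92 FPKM in WT to 0.940 and 0.867 FPKM in *nerd-1* (-0.68, SE 0.0975, adjusted *p* = 0.00379). *DML2* (-0.33, adjusted *p* = 0.0158) and *DME* (-0.32, adjusted *p* = 0.0109) also fell. All 4 glycosylase genes of this family, *ROS1* included, were thus lower in *nerd-1*. In *nerd-1*+T, on the other hand, *DME*, *DML2* and *DML3* did not differ from WT by the test (0.03, -0.10 and -0.17, adjusted *p* = 0.729, 0.315 and 0.197), although *DME* passed as higher under median scaling (0.22, adjusted *p* = 0.0486). *DME* and *DML3* were lower in *nerd-1* than in *nerd-1*+T (-0.35 and -0.52, adjusted *p* = 0.0137 and 0.0139), where *ROS1* was higher. Under median scaling *DML2* lost its call in *nerd-1* (adjusted *p* = 0.0552) and the other 3 glycosylase genes kept theirs. The list as a whole then had 4 genes higher and 4 lower, and with equal totals 2 higher and 8 lower.

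AT3G48425, annotated as a DNAse I-like protein, went from 5.10 and 5.87 FPKM in WT to 2.54 and 2.79 FPKM in *nerd-1* (-0.82, adjusted *p* = 0.00186). *MBD7*, a methyl-DNA binding protein gene that helps ROS1 to reach its targets, rose (0.34, adjusted *p* = 0.00375), as did AT1G05970, annotated as an RNA-binding protein (0.46, adjusted *p* = 0.0124). *EDM2* and *IBM2*, which are needed for the long *IBM1* transcript, did not pass in *nerd-1* (-0.07 and 0.15, adjusted *p* = 0.202 and 0.121). Under median scaling *IBM2* passed as higher in *nerd-1* (0.25, adjusted *p* = 0.0378). With equal totals *EDM2* passed as lower (-0.22, adjusted *p* = 0.00955). Both genes were lower in *nerd-1*+T than in WT (-0.34 and -0.40, adjusted *p* = 0.00259 and 0.00802). They were higher in *nerd-1* than in *nerd-1*+T (0.27 and 0.55, adjusted *p* = 0.00949 and 0.00525).

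**Figure D5:**
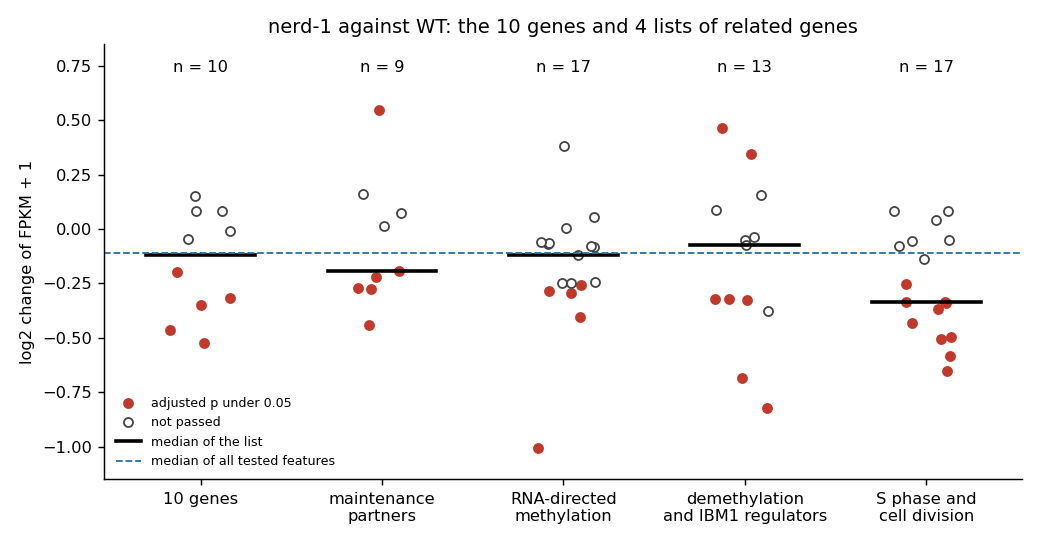
Change of log2(FPKM + 1) in *nerd-1* against WT for the 10 genes and for the tested genes of 4 related lists. Each point is a gene, filled where the adjusted *p*-value is under 0.05, the short line is the median of the list and the dashed line the median of all tested features (-0.11); the S phase and cell division list has the lowest median, -0.33.

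Genes known to be silenced by methylation or kept active by demethylation gave few values. *FWA*, silenced by methylated repeats in its promoter, was listed at 0 in the WT and *nerd-1* libraries and at no more than 0.0192 FPKM in *nerd-1*+T. *SDC*, silenced by non-CG methylation, was at 0.272 and 0.301 FPKM in WT, 0.598 and 0.441 FPKM in *nerd-1* and 0.111 and 0.211 FPKM in *nerd-1*+T, below the filter and not tested. *RMG1*, a disease resistance gene with a promoter demethylated by ROS1, was listed at 0.0735 and 0.0987 FPKM in WT, 0.116 and 0.118 FPKM in *nerd-1* and 0.120 and 0.117 FPKM in *nerd-1*+T, also below the filter and highest in the mutant genotypes. The entries AT5G17125, AT2G12210 and AT4G08680 were listed at 0 in each library.

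*QQS*, an orphan gene whose expression varies with methylation of its promoter repeats, fell from 8.75 and 9.77 FPKM in WT to 4.30 and 4.28 FPKM in *nerd-1* and 4.02 and 4.11 FPKM in *nerd-1*+T. Its changes from WT were -0.95 (adjusted *p* = 0.000675) and -1.02 (adjusted *p* = 0.00039), and the mutant libraries lay together, well below WT. *EPF2*, a stomatal signal gene whose promoter ROS1 keeps unmethylated, was at 3.45 and 3.59 FPKM in WT, 3.07 and 2.62 FPKM in *nerd-1* and 1.56 and 2.07 FPKM in *nerd-1*+T. *EPF2* passed the test in *nerd-1*+T (-0.69, adjusted *p* = 0.00604) but not in *nerd-1* (-0.24, adjusted *p* = 0.132). Its values had the same order across genotypes as those of *ROS1*, but also as those of *QQS* and *MCM7*. The median shifts of all tested features from WT (-0.11, then -0.17) followed this order too, so the order does not single out *EPF2*. *RMG1* was too low for its order to be compared. A part of *ROS1* in the lower *EPF2* was not tested. No methylation was measured in these libraries.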

How the data were processed

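Polyadenylated RNA of 14-d-old seedlings had been sequenced from WT, *nerd-1* and *nerd-1*+T (2 libraries each, grouped by the sample titles). The submitters' processing notes name Bowtie2 2.3.4, TopHat2 2.0.7, Cufflinks 2.2.1 and Cuffdiff with the TAIR10 genome. The deposited values are FPKM that the authors estimated with Cufflinks for each library. Cufflinks assigns reads by likelihood, so values of overlapping or repeated features are uncertain. Each library has 4 entries without an identifier, which were left out.

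Genotypes were compared with limma (version 3.58.1, R 4.3.3) on log2(FPKM + 1) values (moderated variances with a mean-variance trend, all 6 libraries in one fit, two-sided), and *p*-values were adjusted by Benjamini-Hochberg over the 20249 features that reached 1 FPKM in 2 or more libraries. The alternatives were median scaling, equal FPKM totals, no filter, at least 1 FPKM in every library, a pseudocount of 0.1, the replicate block, only the genotypes compared, no variance trend, and leaving out each library. All 10 genes were named, with up to 4 genes per list, those with the largest change in *nerd-1* relative to the median, the genes tied to silencing in full, and other list members where a paralog or regulator of a named gene was described. The members, lists and motif were chosen with earlier results of these data known. Tables were handled with pandas 2.3.3 and numpy 2.4.6 and figures drawn with matplotlib 3.10.9 (Python 3.11.15). Locations and sequences come from RefSeq (TAIR10.1), in which 69 of 69 TAIR10 locations compared were the same.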

Additional observations from a re-analysis of the deposited data

How the results depend on the processing

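Without one library at a time, 3 to 5 of the 10 genes passed in *nerd-1* against WT, 1 to 6 in *nerd-1*+T against WT and 0 to 3 in *nerd-1* against *nerd-1*+T. The counts over all features were 5885 to 13629, 5859 to 12676 and 1774 to 11262. Under median scaling 1 of the 10 genes passed in *nerd-1*+T against WT (4 as deposited) and 1 in *nerd-1* against *nerd-1*+T (2 as deposited). In the latter comparison 1 passed with no filter, 1 with the replicate block and 0 when only these genotypes were fitted, where the adjusted *p*-values from limma were 0.0780 for *NRPE1* and 0.0662 for *ROS1*. With only these genotypes fitted the changes stayed at 0.29 for *NRPE1* and 0.22 for *ROS1*. Their SE went from 0.0823 to 0.0903 and from 0.0513 to 0.0634. Why the other settings moved these counts was not tested.

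The deviations of libraries with the same replicate number were correlated at 0.049, 0.088 and -0.001 between genotypes, so the numbers do not pair the libraries. With the replicate block *CMT3* was lost in *nerd-1* against WT (adjusted *p* = 0.0617), leaving 4 genes, and *NRPE1* in *nerd-1* against *nerd-1*+T (0.0659), and no other of the 10 genes changed its call.

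Reversed directions concerned genes that had not passed. Under median scaling these were *CMT2* (0.104) and *KYP* (0.060) in *nerd-1* against WT, *CMT2* (0.0355), *DRM2* (0.124), *KYP* (0.0176), *NRPD1* (0.107) and *NRPE1* (0.0137) in *nerd-1*+T against WT, and *DDM1* (-0.0601) in *nerd-1* against *nerd-1*+T. With equal FPKM totals they were *DRM2* (-0.0519) and *NRPD1* (-0.0052) in *nerd-1* against WT, and *DDM1* (-0.137), *CMT2* (-0.0173), *DRM2* (-0.0153), *KYP* (-0.0378) and *NRPD1* (-0.0050) in *nerd-1* against *nerd-1*+T. Without one library the changes ranged from -0.0314 to 0.016 for *CMT2* and from -0.101 to 0.0118 for *KYP* in *nerd-1* against WT, and from -0.0848 to 0.0616 for *NRPD1* in *nerd-1*+T against WT. In *nerd-1* against *nerd-1*+T they ranged from -0.0897 to 0.0033 for *MET1*, from -0.0731 to 0.085 for *DDM1* and from -0.062 to 0.0213 for *CMT3*.

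The values are limited by 2 libraries per genotype, an unknown number of reads behind each value and the larger spread of *nerd-1*+T. Where a library was left out, its genotype had 1 library, which was taken to vary like the others. Changes of log2(FPKM + 1) understate those of low genes such as *NRPD1*. RNA levels do not give protein, activity or methylation.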

Other observations

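The next gene on the same strand downstream of each of the 10 genes was looked up, since the mutant was studied for RNA 3′ ends. Genes on the opposite strand were passed over, so the gaps ran from 97 bp for *ROS1* to 28634 bp for *CMT2*. All 10 of these neighbours passed the filter, and in *nerd-1* against WT 0 rose and 4 fell (limma), where 19.4% of all tested features rose and 36.3% fell. The closest is AT2G36480, which starts 97 bp after *ROS1* and differed by -0.25 (adjusted *p* = 0.0218), in the same direction as *ROS1*, and it did not pass under median scaling (-0.14, adjusted *p* = 0.112). The gene downstream of *NRPE1*, *CLC2*, differed by -0.68 (adjusted *p* = 0.00662) although *NRPE1* itself was higher by 0.15 without passing. Of the nearest upstream genes, 8 of 10 passed the filter, of which 1 rose and 3 fell. The one that rose, AT5G13950, lies 626 bp from *KYP* on the opposite strand and changed by 0.51 (adjusted *p* = 0.00115), whereas *KYP* differed by -0.04. Reads between genes are not in the values used here, so extended transcripts were not measured.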
